A study of Mus musculus with 10 samples.

Results

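The genes described here are the neighbours of Tbx1 on mouse chromosome 16: those whose start lies within 10 Mb of the start of Tbx1 in the deposited table, from Tmem186 (start 8633884) to Fgf12 (start 28160120), leaving out Tbx1 itself and genes for ribosomal proteins, of which the interval listed 0. The rule used position only and found 160 of the 15472 listed genes. Of these, 46, the last of them Cdc45 (start 18780447), lie between chosen bounds on start position. They are called here the cluster matching the human 22q11 region, and 114 lie outside it. These bounds may not mark the full extent of the match. Whether genes just beyond them, such as Ppm1f and Ufd1l, belong to it was not tested. RNA was sequenced from whole inner ears of C57BL/6 embryos at E16.5, with 5 samples of genotype nmf219/nmf219 (called nmf219), homozygous for an allele of Tbx1, and 5 of genotype +/+ (called WT). The comparison asks whether carrying the allele on both chromosomes went with a different RNA level of the genes around it. The labels state neither how many animals a sample held nor that replicates were separate litters, so p-values here speak of the spread among these samples alone, which may be technical. Whole inner ears mix sensory, supporting, secretory, mesenchymal, neural and blood cells.

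The product of Tbx1 is a transcription factor of the T-box family, needed in the otic vesicle, the mesenchyme around it and the pharyngeal arches. In people, loss of 1 copy of the 22q11 region removes TBX1 together with a row of neighbours and causes the 22q11 deletion (DiGeorge) syndrome, in which heart, face and ear are affected. In the mouse most of these neighbours lie together on chromosome 16 in another order. A mutant chromosome kept in a line can also differ from the control chromosome near the allele, and whether it did here is not given in the labels.

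The listed genes held 35293445 to 40942278 reads in the nmf219 libraries and 31244799 to 41875972 in the WT libraries, and 1 read was worth a value of 0.0239 to 0.0317. All 12 inner ear markers were measured, with summed values of 2713 to 3182 in nmf219 and 2627 to 3101 in WT. Some libraries stood apart. RNA of 4 Y-linked genes was low in all nmf219 libraries and in WT replicates 1 and 2, and high in WT replicates 3, 4 and 5. The summed value of 16 skeletal muscle markers was 1013 to 4108 in nmf219 and 167 to 2565 in WT. All 16 were higher in mean in nmf219, with a median log2 fold change of 1.61. Limma listed 14 of them at an unadjusted p under 0.05 and 0 past its test, and their part in the results was not tested. The summed value of 7 brain markers was 324 to 358 in nmf219 and 361 to 377 in WT, so the genotypes did not overlap. Of these 7 markers 6 were lower in nmf219, 4 at an unadjusted p under 0.05 and 0 past limma's test, and their part in the results was not tested. The summed value of 6 choroid plexus markers was 58.1 to 70.7 in nmf219 and 56.9 to 281 in WT, with WT replicate 1 the highest. WT replicate 4 had the lowest mean of 10 epidermal markers (1.38 on the log2(value + 1) scale, against 2.17 to 2.96 in nmf219 and 2.15 to 2.98 in the other WT libraries) and the highest mean of 12 dividing-cell markers (6.77, against 6.28 to 6.57 in nmf219 and 6.21 to 6.61 in the other WT libraries). In bulk RNA, fewer cells of a type and less RNA per cell cannot be told apart.

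Tbx1 RNA was present at similar levels in both genotypes. Its values were 25.3, 23.0, 26.1, 23.7 and 28.1 in nmf219 libraries, against 29.3, 20.7, 21.6, 28.1 and 21.7 in WT libraries. The nmf219 values lay inside the WT range. The mean was 25.2 ± 2.02 in nmf219 and 24.3 ± 4.08 in WT (SD, n = 5 each), which gave a log2 fold change of 0.064 with an SE of 0.10 (limma adjusted p = 0.872). The labels do not say what the allele changes in the gene, so this level does not check the genotype labels.

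No gene of the 160 differed between the genotypes past the test. On log2(value + 1), a scale that understates changes of low genes, limma with Benjamini-Hochberg adjustment over all 15472 genes called 13 genes at an adjusted p under 0.05, a background of 0.084%, and 0 of the 160 (lowest adjusted p = 0.680). At an unadjusted p under 0.05 it listed 8 of the 160, which is 5.0%, below the background of 7.11% over all genes. Of these 8, 5 were higher in nmf219 (background 3.88%) and 3 lower (background 3.23%). Among the 160, edgeR's quasi-likelihood test, DESeq2 and limma-voom on the recovered reads also called 0 genes, with 8, 7 and 8 at an unadjusted p under 0.05. Complete separation of the 5 nmf219 from the 5 WT values was seen in 0 of the 160, against a background of 1.17% of all genes.

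Levels of the neighbours were low to high and their differences small. Mean values over all libraries ran from 0.684 for Atf7ip2 to 635 for Eif4a2, a helicase of translation initiation, and 112 genes had a mean of at least 10. The log2 fold change ran from -0.27 (2610318N02Rik) to 0.60 (Trp63), with a median of -0.022, against -0.0055 over all genes. Its median size without sign was 0.045 in the 160 genes and 0.050 in all genes. The mean was lower in nmf219 for 104 genes and higher for 56, a share lower of 65.0%, against 53.1% of all genes. Without WT replicate 5 the median was -0.033 with 106 lower, and without nmf219 replicate 5 it was -0.031 with 107 lower. With limma-voom, edgeR and DESeq2 it was -0.024, -0.024 and -0.021. Without WT replicate 4 the median became -0.0078 and 90 of 160 were lower. With the mean of the epidermal markers as a covariate the median was 0.0040 with 74 lower. With Hbb-y, an embryonic globin, as the covariate it was 0.00045 with 79 lower. The epidermal and Hbb-y covariates were not among the planned ones. With the planned covariates the median was -0.016 with 91 lower (Xist) and -0.014 with 94 lower (skeletal muscle markers). With a block on the range of numbers in the sample descriptions it was -0.014 with 101 lower. The median over all genes was -0.0021 without WT replicate 4, -0.00045 with the epidermal covariate and -0.00085 with Hbb-y. The part that epidermal, red cell or other RNA plays in the small shift was not tested.

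The size of difference that these libraries leave room for can be read from the 95% intervals. For 158 of the 160 genes the whole interval lay within a 2-fold change either way, for 154 within 1.5-fold and for 128 within 1.25-fold, on the log2(value + 1) scale. The exceptions at 2-fold were Trp63 and Myh11, whose upper bounds were 1.02 and 1.08. For the 2 genes with a mean under 1, this scale leaves no room for a 2-fold lower value, so their place inside that bound says nothing of their RNA. For other low genes these bounds can be too narrow. The upper bound of P2rx6, with a mean of 1.75, was 0.65 here and 1.08 by limma-voom.

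**Figure D1:**
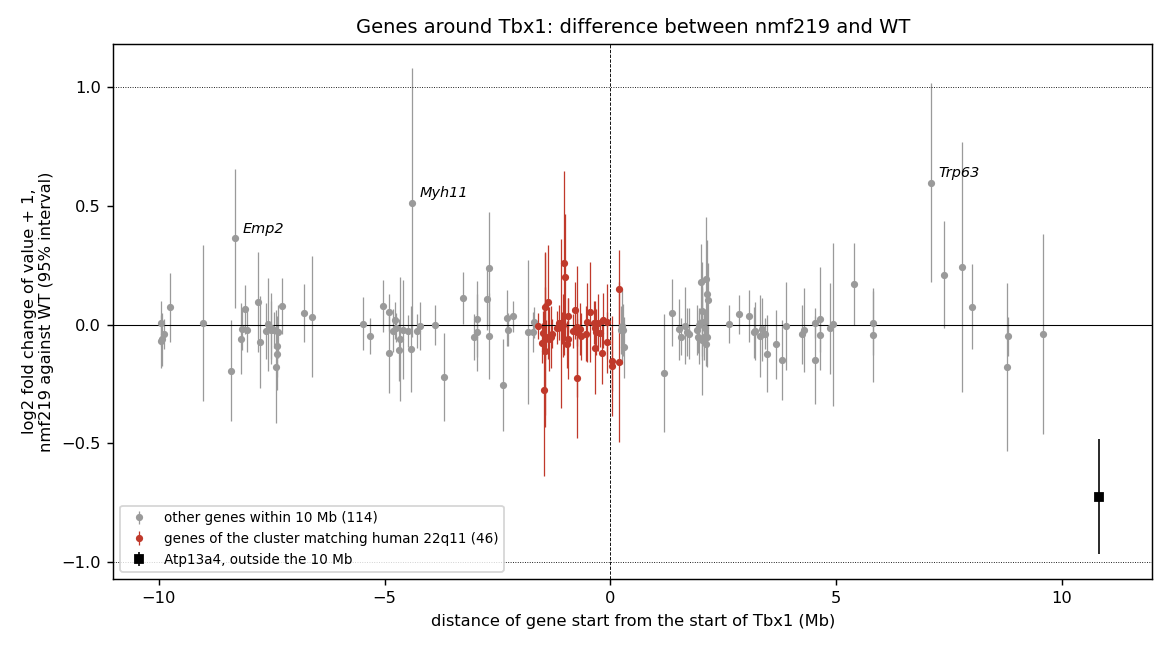
Difference between nmf219 and WT for each of the 160 genes by the distance of its start from that of Tbx1 (Mb). Points are log2 fold changes of value + 1, bars are 95% intervals, dotted lines mark a 2-fold change, red marks the 46 genes of the cluster matching human 22q11, and the black square is Atp13a4 outside the interval. Most points lie near 0 at every distance.

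Medians by distance from Tbx1 were all slightly below 0, as the plot against distance shows. Within 0.5 Mb there were 19 genes with a median log2 fold change of -0.022, and 13 were lower in nmf219. From 0.5 to 2 Mb there were 45 genes with a median of -0.029, of which 34 were lower. From 2 to 5 Mb the median of 57 genes was -0.021, with 36 lower, and from 5 to 10 Mb that of 39 genes was -0.017, with 21 lower. The number at an unadjusted p under 0.05 by limma was 1, 0, 5 and 2 in order of rising distance. These are 5.26%, 0%, 8.77% and 5.13%, against 7.11% of all genes. On the low-coordinate side 64 of 100 genes were lower in nmf219, and on the high-coordinate side 40 of 60. The share lower was 68.4%, 75.6%, 63.2% and 53.8% by rising distance. It was 64.0% on the low-coordinate side and 66.7% on the high-coordinate side, against 53.1% of all genes.

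Genes of the cluster matching human 22q11 had nearly equal summed RNA in both genotypes. The sum of the 46 values was 2127, 2088, 2128, 2116 and 2159 in nmf219 libraries, against 2149, 2172, 2207, 2272 and 2102 in WT libraries. WT replicate 4 had the highest sum and WT replicates 1 and 5 fell among the nmf219 sums, so the groups overlapped. The mean sum was 2124 ± 25.4 in nmf219 and 2180 ± 63.9 in WT (SD, n = 5 each). Of the 46 genes, 31 were lower and 15 higher in nmf219, with a median log2 fold change of -0.028. The share lower was 67.4%, against 53.1% of all genes. Limma called 0 of the 46, with 1, Sept5, at an unadjusted p under 0.05, which is 2.17%, against 7.11% of all genes. The cluster median was -0.038 without WT replicate 5, -0.032 without nmf219 replicate 5 and -0.0092 without WT replicate 4. It was 0.0038 with the epidermal covariate and -0.0013 with Hbb-y, which were not planned. With the planned covariates it was -0.023 (Xist) and -0.017 (skeletal muscle markers), and with the block on description numbers -0.015. All 46 intervals lay within a 2-fold change, 44 within 1.5-fold and 36 within 1.25-fold. With a pseudocount of 0.1 in place of 1 these counts were 45, 42 and 32, and the exception at 2-fold was P2rx6, an ATP-gated channel subunit.

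**Figure D2:**
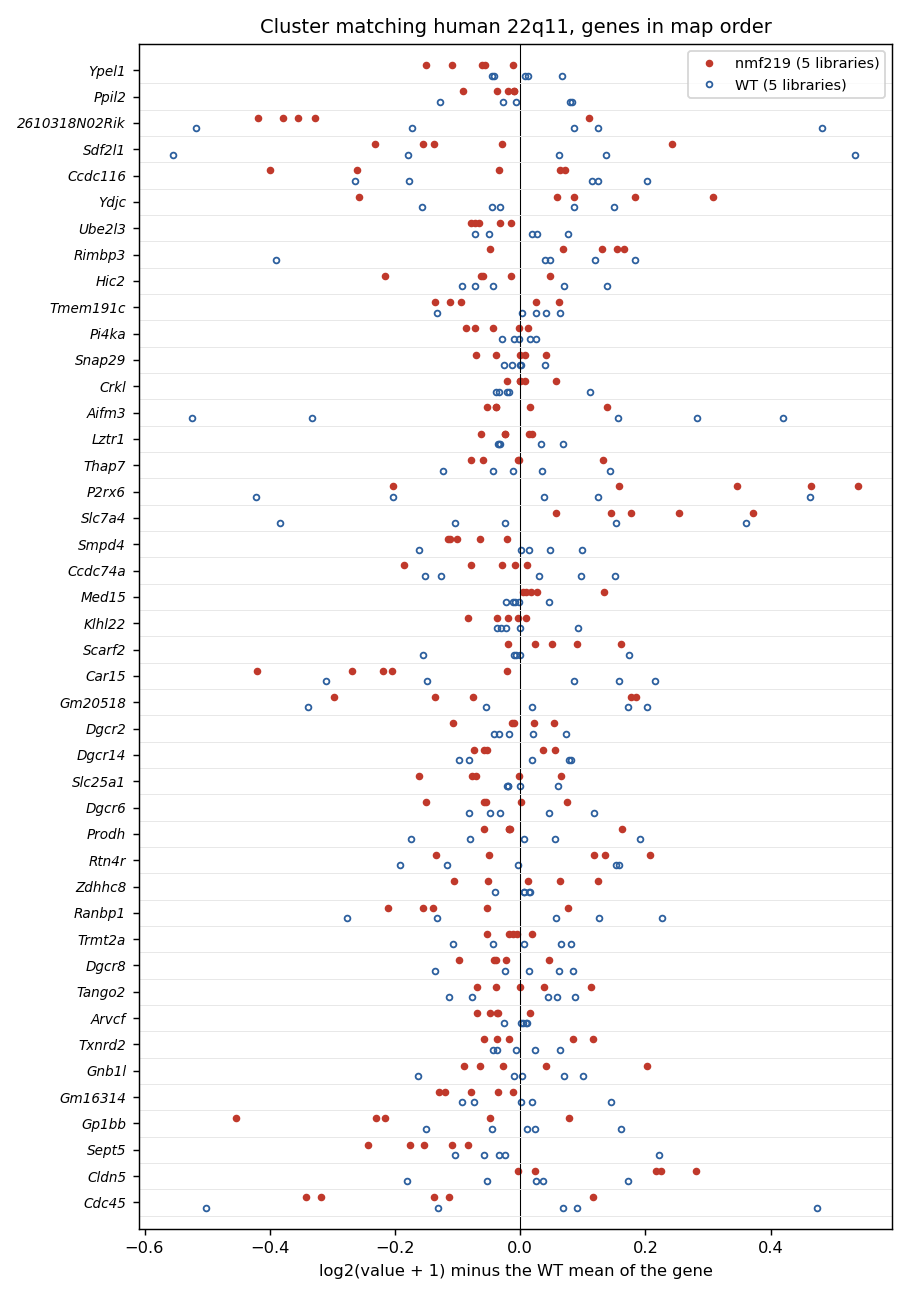
Genes of the cluster, 44 of the 46, in map order from low to high coordinate. Each point is 1 library's log2(value + 1) minus the mean of the WT libraries for that gene, with nmf219 libraries as filled red points and WT libraries as open blue points. Filled and open points overlap in every gene shown, and the wide rows (2610318N02Rik, Sdf2l1, Cdc45) are wide within WT.

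The 2 genes whose starts are nearest to Tbx1 among named genes, 1 on each side, are Gnb1l and Gp1bb. Gnb1l encodes a protein with WD40 repeats, and Gp1bb encodes a subunit of the platelet receptor for von Willebrand factor. Their promoters are shown because T-box factors bind a core of letters GGTGTGA. The 2 genes were taken by position alone, and lying near Tbx1 is no reason to expect the core in them. The sequences are from RefSeq (GRCm38.p6), 250 bases before to 50 after the start of the transcript, written 5′ to 3′ on the strand of the gene, with a match to the core in capitals. The Gnb1l window is chr16:18498463-18498762 on the plus strand and the Gp1bb window chr16:18622354-18622653 on the minus strand.
Gnb1l: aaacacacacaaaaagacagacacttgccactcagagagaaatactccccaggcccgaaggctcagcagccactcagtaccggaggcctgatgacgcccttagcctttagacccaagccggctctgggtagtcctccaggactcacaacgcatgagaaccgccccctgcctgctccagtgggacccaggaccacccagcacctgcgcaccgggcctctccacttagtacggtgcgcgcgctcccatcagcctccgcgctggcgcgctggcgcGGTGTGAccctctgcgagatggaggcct
Gp1bb: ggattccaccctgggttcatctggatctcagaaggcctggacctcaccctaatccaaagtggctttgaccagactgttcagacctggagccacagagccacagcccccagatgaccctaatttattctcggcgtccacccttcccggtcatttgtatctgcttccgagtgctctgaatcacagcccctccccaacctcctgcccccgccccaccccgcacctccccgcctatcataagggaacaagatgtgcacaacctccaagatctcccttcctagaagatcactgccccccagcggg
The core, searched on both strands as GGTGTGA and TCACACC, is in the Gnb1l window and not in that of Gp1bb. It is in 1307 of 32851 promoter windows of RefSeq, which is 3.98%. Of 154 windows matched to 124 of the 160 genes it is in 4, those of Tmem191c, Arvcf, Gnb1l and Ehhadh, which is 2.60%. A match describes letters and is not a binding site.

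Gnb1l, with the core in its window, had values of 6.52, 6.65, 6.86, 8.21 and 7.24 in nmf219 libraries, against 7.40, 6.15, 7.58, 7.02 and 6.95 in WT libraries. The groups overlapped throughout, and the log2 fold change was 0.013 with an SE of 0.072 (limma adjusted p = 0.969). Gp1bb, without it, had 5.89, 4.84, 7.45, 5.82 and 6.74 in nmf219 libraries, against 7.06, 6.21, 6.76, 7.95 and 7.14 in WT libraries. Here 3 nmf219 libraries lay below every WT library and 2 among them, and the log2 fold change was -0.17 with an SE of 0.097 (limma adjusted p = 0.699). Gp1bb overlaps Sept5 by 593 bases on the same strand, so reads of that stretch could be counted for either. Arvcf, a catenin of cell junctions, and Ehhadh, a peroxisomal enzyme of fatty acid oxidation, also have the core and had log2 fold changes of -0.035 and -0.033. For Arvcf the core is in the window chr16:18392313-18392612 and not in its other windows. Tmem191c, the fourth with the core, averaged 8.54 ± 0.592 in nmf219 and 8.88 ± 0.518 in WT (SD, n = 5 each), a log2 fold change of -0.051.

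Sept5, a septin that acts in vesicle release, starts 40.1 kb from the start of Tbx1 (chr16:18621811-18629938). Its values were 114, 104, 116, 109 and 111 in nmf219 libraries, against 120.2, 118, 115, 144 and 121 in WT libraries. All but 1 of the nmf219 libraries lay below the lowest WT library, and WT replicate 4 stood above the rest. The mean was 111 ± 4.79 in nmf219 and 124 ± 11.5 in WT (SD, n = 5 each), a log2 fold change of -0.15 (SE 0.057, 95% interval -0.28 to -0.028) with an unadjusted p of 0.0208 and a limma adjusted p of 0.680. Without WT replicate 4 the log2 fold change was -0.098. With the skeletal muscle markers as a covariate it was -0.062, and the part of muscle RNA in the difference was not tested.

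The next genes on both sides gave the same picture. Txnrd2, a mitochondrial thioredoxin reductase, had a log2 fold change of 0.018. Tango2 and Dgcr8, the partner of Drosha in microRNA processing, had log2 fold changes of 0.0090 and -0.031. On the other side Cldn5, the tight junction claudin of endothelium, had values of 17.3, 14.9, 17.2, 18.0 and 14.6 in nmf219 libraries, against 14.1, 12.8, 14.9, 15.0 and 16.6 in WT libraries, with 3 nmf219 libraries above every WT library and a log2 fold change of 0.15 with an SE of 0.076 (limma adjusted p = 0.693). Ufd1l, which acts in the extraction of ubiquitinated proteins, and Mrpl40, a mitochondrial ribosomal protein, both had -0.022.

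By role, the signalling and adaptor genes of the 22q11 neighbourhood come first, with Ppm1f from just below the cluster among them. Of 13 measured, 7 were higher and 6 lower in nmf219, with a median log2 fold change of 0.0085 and 0 at an unadjusted p under 0.05 by limma. Crkl, an adaptor of receptor tyrosine kinases whose loss in mice causes defects like those of the human deletion, averaged 72.2 ± 1.496 in nmf219 and 71.8 ± 3.26 in WT. Dgcr2, an adhesion receptor-like protein, averaged 161 ± 6.71 in nmf219 and 163 ± 5.44 in WT, and Scarf2, a scavenger receptor-like protein, 154 ± 7.40 in nmf219 and 147 ± 12.1 in WT. All SDs here are over n = 5 libraries.

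Mitochondrial and metabolic genes gave 4 higher and 3 lower of 7 measured, a median log2 fold change of 0.0049 and 0 at an unadjusted p under 0.05 by limma. Slc25a1, the citrate carrier of the inner membrane, averaged 25.8 ± 1.59 in nmf219 and 26.7 ± 0.674 in WT (SD, n = 5 each). Prodh, which breaks down proline, averaged 5.92 ± 0.431 in nmf219 and 5.89 ± 0.666 in WT (SD, n = 5 each).

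A list mainly of nuclear genes of RNA processing, chromatin and replication, which also held Ufd1l and Klhl22, gave 1 higher and 9 lower of 10 measured. Its median log2 fold change was -0.024, with 0 at an unadjusted p under 0.05 by limma. Ranbp1, a regulator of Ran in nuclear transport and mitosis, averaged 88.4 ± 7.11 in nmf219 and 95.1 ± 13.2 in WT (SD, n = 5 each). Hira, a histone H3.3 chaperone, averaged 58.8 ± 2.19 in nmf219 and 63.1 ± 5.84 in WT (SD, n = 5 each). Cdc45, part of the replicative helicase, had values of 14.1, 11.9, 12.1, 13.8 and 16.7 in nmf219 libraries, against 13.9, 16.4, 16.09, 21.6 and 10.5 in WT libraries. The highest and the lowest of the 10 values were both WT, and the log2 fold change was -0.16 with an SE of 0.15 (limma adjusted p = 0.795). Of 12 dividing-cell markers elsewhere in the genome, 0 were higher and 12 lower in mean in nmf219, with a median log2 fold change of -0.13 and 0 past limma's test or at an unadjusted p under 0.05. Their summed value was 1207 to 1479 in nmf219 and 1150 to 1681 in WT, and their part in the nuclear genes was not tested.

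In the whole interval, 7 named genes had an unadjusted p under 0.05 and a mean of at least 1, all with a limma adjusted p of 0.680, and the eighth was an unnamed model. Of the 4 higher in nmf219, Trp63 differed most. It encodes p63, the transcription factor of stratified epithelia, and lies 7.10 Mb from Tbx1. Its values were 3.69, 3.05, 2.93, 3.41 and 2.48 in nmf219 libraries, against 1.83, 1.49, 2.06, 0.668 and 3.01 in WT libraries. WT replicate 5 lay among the nmf219 libraries and WT replicate 4 was the lowest. The mean was 3.11 ± 0.462 in nmf219 and 1.81 ± 0.853 in WT (SD, n = 5 each), a log2 fold change of 0.60 (SE 0.19, 95% interval 0.18 to 1.02).

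Emp2, a membrane protein of epithelia and endothelium, lies on the other side, 8.30 Mb away. It had values of 27.7, 27.7, 27.6, 30.2 and 21.8 in nmf219 libraries, against 22.8, 17.0, 21.2, 16.3 and 27.8 in WT libraries, a log2 fold change of 0.37 (SE 0.13). Most nmf219 libraries lay near 28, and WT replicate 5 was the only WT library at that level. Vwa5b2 had 10.8, 11.1, 10.5, 10.5 and 11.04 in nmf219 libraries, against 9.23, 9.49, 10.9, 7.78 and 9.77 in WT libraries, a log2 fold change of 0.18 (SE 0.072). Cebpd, a bZIP transcription factor of the acute phase response, had 4.78, 4.33, 3.71, 4.35 and 4.31 in nmf219 libraries, against 4.16, 2.98, 3.01, 2.94 and 4.50 in WT libraries, a log2 fold change of 0.24 (SE 0.11). Cebpd overlaps Spidr on the opposite strand by 1805 bases, and without knowing whether counting used strand these reads cannot be told apart.

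Besides Sept5, the genes lower in nmf219 were Pkp2 and Efcab1. Pkp2, a plakophilin of desmosomes, had values of 4.40, 5.37, 4.30, 5.77 and 5.26 in nmf219 libraries, against 6.57, 6.06, 5.46, 7.04 and 5.74 in WT libraries, a log2 fold change of -0.25 (SE 0.088). The groups overlapped only through nmf219 replicate 4, above 2 WT libraries. Efcab1, a calcium-binding protein of motile cilia, had 22.6, 21.7, 24.0, 20.7 and 21.0 in nmf219 libraries, against 25.5, 27.0, 21.4, 31.6 and 24.5 in WT libraries, a log2 fold change of -0.22 (SE 0.085). WT replicate 3 lay among the nmf219 libraries, and with the skeletal muscle markers as a covariate the log2 fold change was -0.055.

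**Figure D3:**
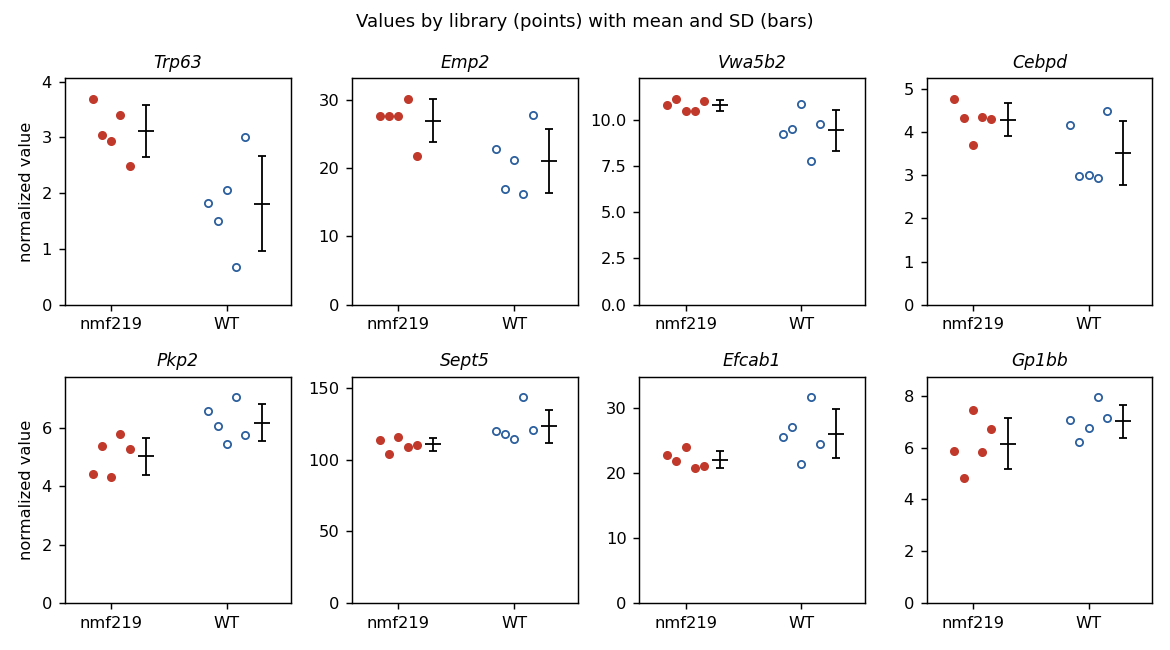
Normalized values of 8 genes in each library, nmf219 (filled) left of WT (open), with the mean and SD as bars and each axis from 0. The 4 genes in the upper row were higher and the 4 in the lower row lower in nmf219 in mean, and in each the 2 groups overlap.

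Trp63 values were ordered across libraries much as the epidermal markers were, in both genotypes. WT replicate 5, with an epidermal mean of 2.98, had a Trp63 value of 3.01, and WT replicate 4, with 1.38, had 0.668. Of 10 epidermal markers measured, 10 were higher in mean in nmf219 with a median log2 fold change of 0.47, 0 past limma's test and 2 at an unadjusted p under 0.05. Their summed value was 44.7 to 91.3 in nmf219 and 20.4 to 102 in WT, and none of the 10 was at 0. With their mean as a covariate the log2 fold change of Trp63 was 0.30 (limma adjusted p = 0.456) and that of Emp2 0.17, and the part of epidermal RNA in these differences was not tested. The genes next to Trp63, named after their values were seen, were P3h2, a collagen prolyl hydroxylase, with a log2 fold change of 0.21, Cldn1, the claudin of the epidermal barrier, with 0.24, and Il1rap, a subunit of the interleukin-1 receptor, with 0.075.

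**Figure D4:**
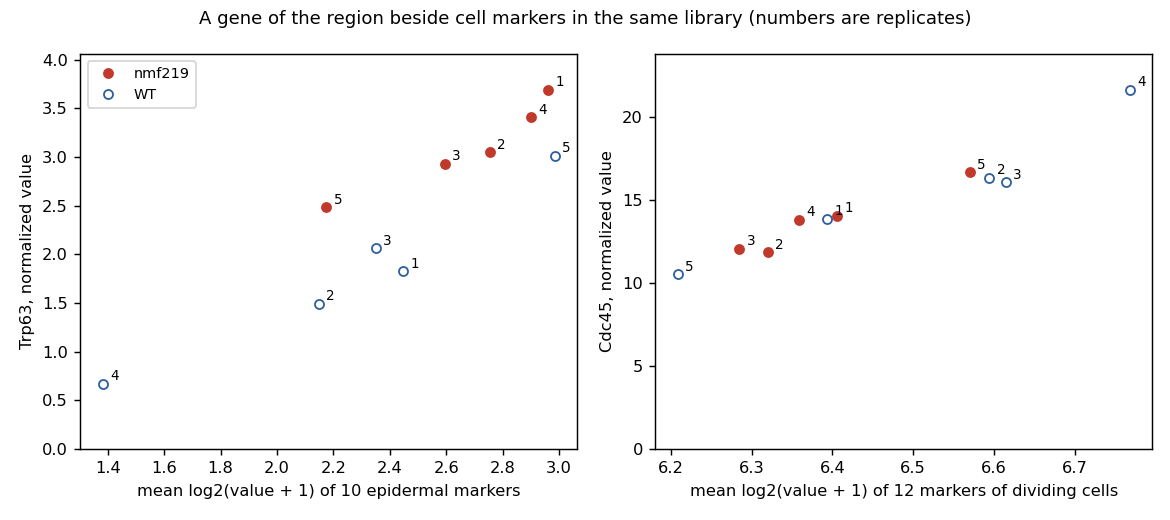
Each point is 1 library (number = replicate; nmf219 filled, WT open). Left, the normalized value of Trp63 against the mean log2(value + 1) of 10 epidermal markers; right, that of Cdc45 against the mean of 12 dividing-cell markers. WT replicate 4 is lowest in both measures on the left and highest in both on the right.

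Myh11, the smooth muscle myosin heavy chain, was also singled out after its values were seen. It had values of 23.3, 28.8, 19.3, 19.3 and 12.5 in nmf219 libraries, against 21.3, 14.4, 11.5, 7.47 and 17.6 in WT libraries, a log2 fold change of 0.51 with an SE of 0.26 (limma adjusted p = 0.685). The groups overlapped widely. Of 7 other smooth muscle markers, 7 were higher in mean in nmf219 with a median log2 fold change of 0.36, 4 at an unadjusted p under 0.05 and 0 past limma's test, and their summed value was 192 to 252 in nmf219 and 141 to 203 in WT. With WT replicates 3, 4 and 5 left out, the log2 fold change of Myh11 was 0.18. The part of smooth muscle cells or of the sex of the embryos in it was not tested.

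Developmental genes of the interval split evenly. Of 14 measured, 7 were higher and 7 lower in nmf219, with a median log2 fold change of -4.8e-05 and 2 (Trp63 and Emp2) at an unadjusted p under 0.05. Etv5, an ETS factor downstream of FGF signalling, averaged 75.9 ± 3.14 in nmf219 and 84.7 ± 11.8 in WT (SD, n = 5 each). Igf2bp2, an mRNA-binding protein, averaged 121 ± 11.1 in nmf219 and 132 ± 13.7 in WT (SD, n = 5 each), and Ephb3, an ephrin receptor, 91.1 ± 4.48 in nmf219 and 90.9 ± 2.48 in WT (SD, n = 5 each). Lpp, an actin-associated protein of focal adhesions, averaged 187 ± 15.7 in nmf219 and 186 ± 13.6 in WT (SD, n = 5 each).

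Genes of general cell functions included the most abundant of the interval. Of 10 measured genes of translation, splicing and protein turnover, 2 were higher and 8 lower, with a median log2 fold change of -0.030 and 0 at an unadjusted p under 0.05 by limma. Eif4a2 averaged 636 ± 4.15 in nmf219 and 633 ± 17.9 in WT (SD, n = 5 each), and Eif4g1, the scaffold of the cap-binding complex, 548 ± 13.5 in nmf219 and 555 ± 24.4 in WT (SD, n = 5 each). Ap2m1, a subunit of the clathrin adaptor of endocytosis, averaged 238 ± 4.44 in nmf219 and 239 ± 9.74 in WT, and Tra2b, a splicing regulator, 199.7 ± 10.97 in nmf219 and 212 ± 21.4 in WT (SD, n = 5 each). Per kb of exon, the WT level was 119 for Eif4a2 and 75.9 for Eif4g1, against a median of 6.27 over the neighbours and 5.73 over all genes. Of 5 replication and repair genes 2 were higher and 3 lower (median -0.032), with Mcm4, a subunit of the replicative helicase, at 93.4 ± 5.13 in nmf219 and 96.0 ± 11.4 in WT (SD, n = 5 each). Of 7 genes for transporters, channels and claudins 3 were higher and 4 lower (median -0.0055), with Abcc5, an efflux pump, at 222 ± 12.2 in nmf219 and 228 ± 13.6 in WT (SD, n = 5 each). Limma listed 0 of these 12 entries at an unadjusted p under 0.05.

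Genes on either side of the bounds were as follows. Just inside the low end, Tmem186 and Pmm2 had log2 fold changes of 0.0052 and -0.069, and just outside it Mettl22 and Abat had 0.14 and 0.011. Just inside the high end, Ccdc50 and Fgf12 had -0.050 and -0.038, and just outside it Mb21d2 and Hrasls had -0.065 and -0.20. At the cluster's bounds, Ypel1 inside had -0.078 and Top3b and Ppm1f outside -0.031 and 0.0092, while Cldn5 and Cdc45 inside had 0.15 and -0.16 and Ufd1l and 2510002D24Rik outside -0.022 and -0.0072.

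The nearest gene to pass the test on chromosome 16 lay beyond the interval. Atp13a4, a P5-type ATPase, starts 10.8 Mb from Tbx1 (start 29395853). Its mean was 0.731 ± 0.213 in nmf219 and 1.86 ± 0.325 in WT (SD, n = 5 each), a log2 fold change of -0.73 with an SE of 0.11 (limma adjusted p = 0.0397). In the rest of chromosome 16, with 312 genes, limma called 2, Atp13a4 and Kcne1, a potassium channel subunit of marginal cells 73.8 Mb from Tbx1, and 27 had an unadjusted p under 0.05, which is 8.65%.

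The authors' deposited table, from a test of their own, listed 3 of the 160 genes at an FDR under 0.05, which is 1.88%, below its background of 3.26% of all genes. In the authors' deposited table Trp63 had a log2 fold change of 0.81 and an FDR of 3.31e-06, Myh11 0.51 and 0.00018, and Emp2 0.36 and 0.0292. None of the 46 cluster genes was among them, and the lowest FDR of the cluster in the authors' deposited table was 0.104 for 2610318N02Rik. The 3 genes are those described above beside epidermal and smooth muscle markers, and the part of those tissues in these calls was not tested.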

How the data were processed

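Whole inner ear RNA of 5 nmf219 and 5 WT samples was analysed. Per the labels' protocols, RNA was taken with Trizol and 1 µg went into Illumina libraries. The aligner, counter, strand setting, annotation and build were not given in the sources used here. Per the file headers, the deposited table gives each library a normalized signal under a heading of counts and CPM, with the authors' log2 fold change, signed fold change score, p-value and FDR. Dividing by the step of each library gave whole reads for 100% of values (within 0.01 of a read), and these recovered reads served the count tests. Positions are those of the table, whose coordinates match GENCODE M21 (GRCm38) at both ends for 103 of the 160 genes and at 1 end or more for 139. The start of a gene is its lower coordinate. Gene overlaps touched 60 of the 160, of which 51 overlapped a gene on the opposite strand. The table had turned 22 symbols into dates, Sept5 among them, and these were restored from the identifiers.

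Genotypes were compared with limma-trend (limma 3.58.1, R 4.3.3) fitted to log2(value + 1), without covariates, with Benjamini-Hochberg adjustment over 15472 genes. The plan had named a count test for counts; the table holds normalized values. Intervals are 95% and cover the spread between libraries. Alternatives were edgeR 4.0.16, DESeq2 1.42.0, limma-voom, other scalings, pseudocounts and filters, blocks, covariates, other windows and each library left out. Genes and lists were chosen with earlier results of these data known, and marker lists for epidermis, smooth muscle and dividing cells, and the Y-linked list, were added after the data were seen. Named were the nearest 6 on each side of Tbx1, up to 8 per direction with an unadjusted p under 0.05, the most abundant 4 of each list, and the 2 on either side of each bound; unnamed models were counted only. A few genes under this rule are left out of the text and stay in the counts. Reads behind a value are the value divided by the step of its library, so 3 reads correspond to 0.0716 to 0.0952.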

Additional observations from a re-analysis of the deposited data

Results flagged for a closer look

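In 6 of 110 groups of 5 values over the named genes, which is 5.45%, 1 library lay far from the other 4, and chance gives about 1 in 20. They were 2610318N02Rik in nmf219 replicate 5 with 9.51, Klhl22 in WT replicate 4 with 87.1, Slc25a1 in WT replicate 2 with 27.8, Arvcf in WT replicate 3 with 57.6, Sept5 in WT replicate 4 with 143.7 and Eif4a2 in WT replicate 5 with 664.9. Without WT replicate 4 the log2 fold change of Sept5 was -0.098, against -0.15 with it.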

How the results depend on the processing

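Limma called 0 of the 160 genes under every scaling, filter, pseudocount, covariate and block tried and without each library in turn (0 to 0), as did edgeR, DESeq2 and limma-voom. With a window of 11 Mb 1 of 167 genes passed, and with 20 Mb 1 of 291, in both cases Atp13a4. The count at an unadjusted p under 0.05 was 8 and became 4 with Xist (4.17% of all genes) and 2 with the muscle markers (2.77%) as a covariate. Leaving out 1 library gave 6 to 26, with 15 without nmf219 replicate 5 (10.3% of all genes) and 26 without WT replicate 5 (14.7%). Of 55 named genes over 25 settings, 1375 values kept their side of the threshold, which only restates the 0 calls. In 111 of these values, over 28 genes, the sign changed. The log2 fold change of Trp63 ran from 0.30 (epidermal covariate) to 0.96 (voom), with a lowest adjusted p of 0.213 without WT replicates 3, 4 and 5. Deviations of same-numbered samples correlated at -0.48 to 0.14. These correlations also take in differences in tissue content, so they cannot show whether same-numbered samples were paired. The replicate block gave 0 of the 160 genes and 2 over all genes. Within the 2 ranges of numbers in the sample descriptions the median was -0.012 and -0.015. Library order and genotype cannot be told apart.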
